A study of Homo sapiens with 6 samples.

Results

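The regions described here, named nearly always retained introns, were 1011 introns of HEK293A-TOA cells chosen by their inclusion in siNT. They came from 21158 retained intron events, of which 10155 had enough reads to be tested, so they made up 9.96% of the tested introns. An intron was taken when its inclusion averaged at least 0.9 over the 3 siNT libraries. Inclusion is the share of the kept form among the kept form and the form spliced at that junction, and the spliced percent used below is the rest, so neither is a share of all RNA of the gene. An intron also needed at least 5 reads across its spliced junction over the 6 libraries, and a mean of at least 20 junction reads per library. All 1011 passed the read filter of the test. They lay in 722 genes, of which 552 held 1 of them and 170 held more, up to 8 each in the snoRNA host genes SNHG1 and GAS5. HEK293A-TOA is a human embryonic kidney line. Both groups were of this line, grown alike and collected on day 5, and the study sequenced them to learn what the loss of SFSWAP does to splicing. In the siNT group 3 biological replicates received an siRNA without a target. In the siSFSWAP group 3 received 40 nM of siRNA against SFSWAP, an SR-related nuclear splicing protein. The libraries measured polyadenylated RNA of whole cultures, so a form made by fewer cells and a form made less per cell cannot be told apart.

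An intron is removed by the spliceosome, which recognises a 5′ splice site, usually beginning with GT, and a 3′ splice site, usually ending with AG. Some introns stay in the finished RNA. When the kept sequence is itself part of a normal exon, the gene is read as 1 long exon and the rare spliced RNA lacks an internal piece of it. Such a piece inside protein-coding sequence is called an exitron, and its removal keeps the reading frame when its length is divisible by 3. In other cases the same RNA is spliced at another, more used site, and the rare junction is an alternative 5′ site, an alternative 3′ site or the skipping of an exon.

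The splice sites of 6 of these introns are shown first, 5 that were called between siNT and siSFSWAP and that of FTH1, which had many reads and was not called. Each 5′ site is given as 3 exon and 6 intron bases and each 3′ site as 20 intron and 3 exon bases, read from the GRCh38 genome, with the first 2 and last 2 intron bases in capitals. The sites of HMGN1 lay at chr21:39348539-39348547 and chr21:39348337-39348359, minus strand, and those of MAP7D1 at chr1:36176319-36176327 and chr1:36176398-36176420, plus strand. The BAZ2A sites were at chr12:56615213-56615221 and chr12:56615126-56615148, minus strand, and the INVS sites at chr9:100292434-100292442 and chr9:100292927-100292949, plus strand. For RPS24 they were chr10:78037302-78037310 and chr10:78037419-78037441, plus strand. For FTH1 they were chr11:61967452-61967460 and chr11:61967369-61967391, minus strand.
HMGN1 5′ site: gagGTgagt
HMGN1 3′ site: gtgctgcttttgcctttcAGaaa
MAP7D1 5′ site: aggGTaggg
MAP7D1 3′ site: ccgcactcatccctctgcAGccg
BAZ2A 5′ site: gagGTgatg
BAZ2A 3′ site: aaacctttgcaccctcccAGgag
INVS 5′ site: gagGTgaga
INVS 3′ site: tattgaccttctccccgtAGagc
RPS24 5′ site: aagGTatag
RPS24 3′ site: cctcttcttctggattacAGaag
FTH1 5′ site: accGCcgcc
FTH1 3′ site: actaccaccaggactcagAGgcc

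The 5 called introns began with GT and the FTH1 intron with GC. In the FTH1 interval the same bases stood at both edges over 6 nt, so its edges cannot be placed exactly. Whether its junction arose in the cell or in library preparation was not tested. The first bases do not separate called from other introns, since RPL8 and RPS3, also with many spliced reads and not called, have GT-AG ends. Over all 1011 introns 56 had GC-AG ends, which was 5.54% beside 1.53% of all tested introns, and 947 had GT-AG ends. Among GT-AG introns the 3′ site score, the summed log2 ratio of base frequencies at annotated introns over equal frequencies, had a median of 6.38 against 8.09 for all tested introns. The 5′ site score had a median of 7.12 against 7.98. The members were longer, with a median of 239 nt against 161 nt, and equal in GC content at 55.0% against 55.4%. These sequence features were not part of the rule and are given as descriptions.

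The name "nearly always retained" held for a minority of these introns once other junctions were counted. In 802 of the 1011, or 79.3%, some other junction crossing part or all of the same interval had more reads than the intron's own junction. Among the 9144 other tested introns this was so in 906, or 9.91%. The most used other junction had a median of 544 reads over the 6 libraries and the members' own junction a median of 10. Only junctions that the 2 tables list as a skipping junction entered this count. RNA spliced at such a junction can still run across an edge of the interval and is then counted as keeping it. Of the 1011 introns 879 (86.9%) shared a splice site with another annotated intron, 586 at the 5′ site, 454 at the 3′ site and 161 at both, beside 49.0% of all tested introns. Most members were thus rarely used junctions beside a more used one, and they are called here by the rule, as introns with siNT inclusion of at least 0.9.

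**Figure D1:**
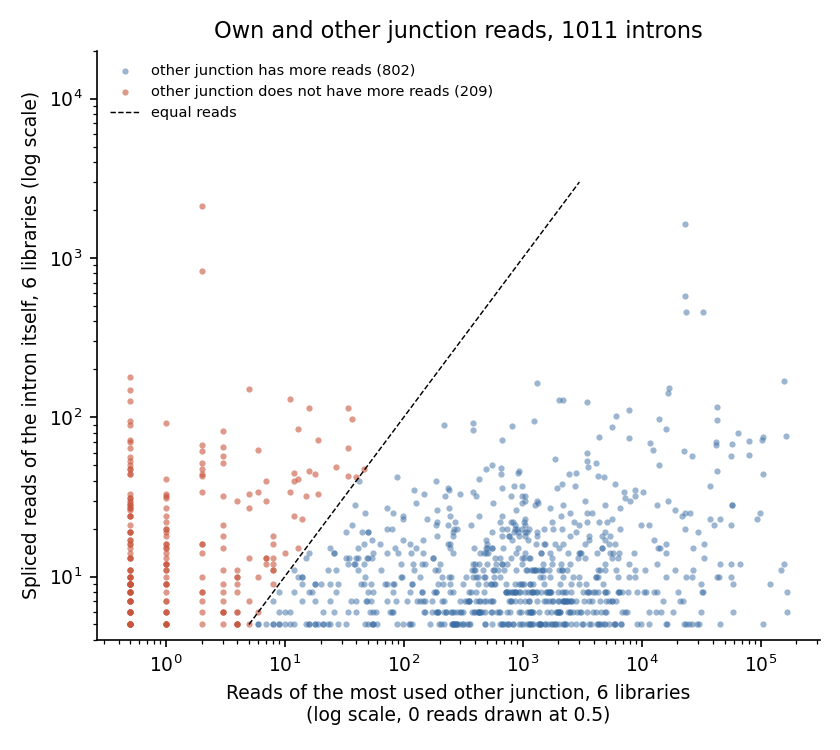
Each of the 1011 points is an intron, with the reads of its own spliced junction on the vertical axis and those of the most used other junction across the interval on the horizontal axis, both summed over 6 libraries on log scales. Most points, 802, lie to the right of the line of equal reads, and 209 lie on it or to its left.

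The other 209 introns, in 205 genes, had no stronger junction in these tables, and 80 of them had no read on any other. They had a median of 835 inclusion reads and 14 spliced reads. In 71 of them, in 69 genes, the interval lay inside annotated coding sequence, which is the exitron arrangement. The coding intervals were shorter, with a median of 129 nt, and 46 of 71 (64.8%) had a length divisible by 3, beside 32.8% of all tested introns. They had GC-AG ends in 12 cases (16.9%). In 15 cases (21.1%) the same bases stood at both edges of the interval over 6 nt or more, beside 3.09% of all tested introns. At such a repeat the edges of the junction cannot be placed exactly, and whether these junctions arose in the cell or in library preparation was not tested. Their median 3′ site score among GT-AG introns was 4.64.

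By annotated position, 121 of the 1011 intervals lay within coding sequence, 98 spanned a start or stop codon, 51 lay in a 5′ UTR and 67 in a 3′ UTR. The largest class, 486 introns or 48.1%, lay in an exon of a transcript annotated as a retained intron and in no exon of a protein-coding transcript. A further 69 lay only in exons of other transcript types, and 119 lay in no single annotated exon. The junction itself was annotated as an intron in GENCODE release 44 in 599 cases (59.2%), beside 93.2% of all tested introns, and it belonged to a MANE transcript, the representative transcript of a gene, in 15 cases (1.48% beside 78.4%).

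**Figure D2:**
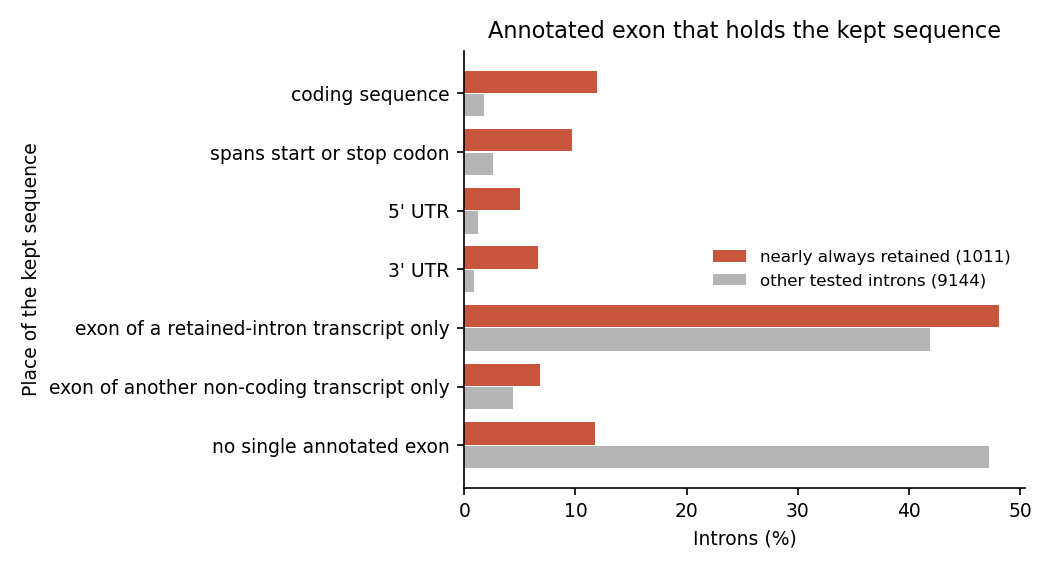
Bars give the percent of introns by the annotated exon that holds the kept sequence. They are drawn for the 1011 introns with siNT inclusion of at least 0.9, labelled nearly always retained, and the 9144 other tested introns. Coding sequence holds 12.0% of the former and 1.76% of the latter, while introns within no single annotated exon make up 11.8% and 47.2%. The label for retained-intron transcripts leaves out only intervals in protein-coding exons, and the label for another non-coding transcript stands for all other transcript types.

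The knockdown was read from SFSWAP itself, whose junction reads fell from 82.1 ± 3.78 CPM in siNT to 30.2 ± 7.70 CPM in siSFSWAP (SD, n = 3 each). Reads of VIM, KRT8 and KRT18, expected in this line, were present in every library. NES, also expected, had no skipped exon event and could not be read. The retained intron table held 7465949 junction reads in siNT library a and 2767079 to 4450930 in the others. The members took 696731 of these reads in siNT library a and 261118 to 419060 in the others. Spliced reads of the members were few, 6574 in siNT library a and 2661 to 4869 in the other 5. Between 141 and 359 members had 0 spliced reads in a given library, and 478 had under 10 over all 6. Where a library had 0 spliced reads, a median member's 62 to 157 reads per library set the precision, and small differences were not detectable at this depth.

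The spliced form was more common in siSFSWAP for most of these introns, but this depended on how they were chosen. The mean spliced percent over the 1011 introns was 4.53, 3.81 and 3.64% in the siNT libraries (a to c), against 6.74, 6.4 and 7.31% after SFSWAP knockdown. Every siSFSWAP library was above every siNT library. The median change was 0.99 percentage points, and the median over all 10155 tested introns was 0.52. The mean was higher in siSFSWAP for 675 introns and lower for 336, and 112 were higher by at least 10 points in the mean while 1 was lower by as much. Since siNT inclusion chose the introns, these counts describe the choice as well as the cells.

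The same counts were therefore made for introns chosen in other ways. When the mean inclusion of all 6 libraries had to reach 0.9, 946 introns were taken and the median change was 0.29 points. Library means were then 4.23, 4.16 and 4.06% in siNT and 4.65, 4.21 and 5.05% in siSFSWAP, and siSFSWAP library b lay within the siNT range. When siSFSWAP inclusion had to reach 0.9, 943 introns were taken, the median change was −0.11 points, and the siSFSWAP libraries all lay under the siNT ones. Lastly, introns were chosen by their inclusion in 2 siNT libraries and read in the third, whose inclusion the choice had not used. The read minimums still counted all 6 libraries, so reads of the held-out and siSFSWAP libraries entered the choice. The part of this in the differences below was not tested. The mean over introns was then 5.75, 5.16 and 5.11% in held-out libraries a, b and c. The siSFSWAP mean was higher by 1.9, 1.83 and 1.65 points. In the mirrored reading, with introns chosen on 2 siSFSWAP libraries, the held-out siSFSWAP library differed from the siNT mean by −0.51, −0.59 and 0.25 points.

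**Figure D3:**
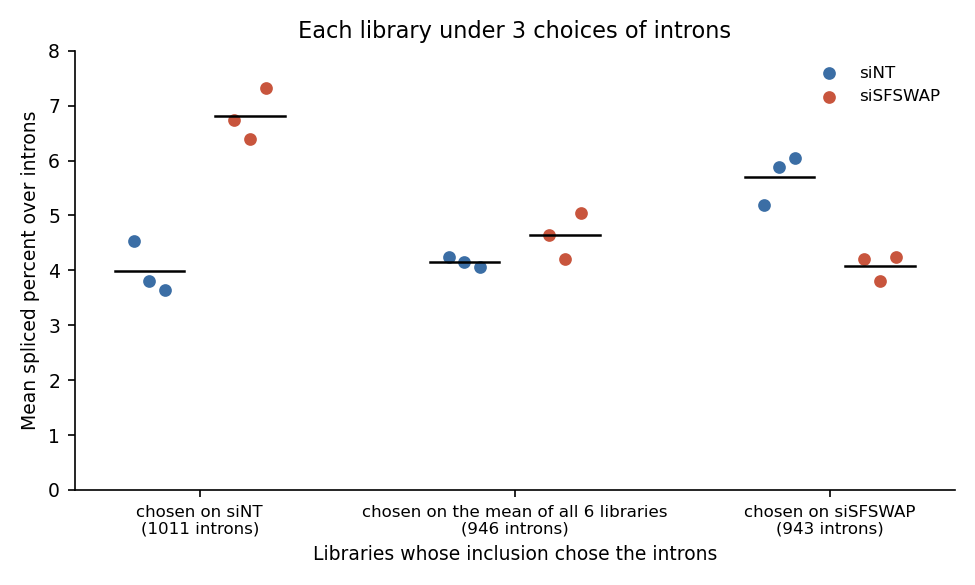
Points are the mean spliced percent over introns in each library, and lines are the group means (n = 3), for introns chosen on siNT, on all 6 libraries or on siSFSWAP. The siSFSWAP points sit between 6.4 and 7.31% with introns chosen on siNT and between 3.81 and 4.24% with introns chosen on siSFSWAP.

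Single introns were called in a quasi-binomial F test fitted over all 10155 introns, with Benjamini-Hochberg adjustment over all of them. With the adjusted p no greater than 0.05 and inclusion changed by 0.2 or more, 10 of the 1011 were more spliced in siSFSWAP, beside a background of 1.61% of all tested introns. None was less spliced (0 called, background 0.148%), although 23 were at an unadjusted p under 0.05 in that direction. A spliced percent of at most about 10 cannot fall by that much. Changes were therefore also read as odds of the spliced over the kept form, and at a change of at least 2-fold 18 were more spliced (background 2.71%) and 1 was less spliced (background 0.295%). By the adjusted p alone 20 passed (background 3.22%). In the quasi-binomial test 133 introns were at an unadjusted p under 0.05 and more spliced, while limma on log2 odds called 0 of the 1011 and put 195 there, with 39 less spliced. Complete separation of the libraries was seen for 182 introns higher in siSFSWAP (18%, background 15.3%) and 42 lower (4.15%, background 6.02%). Most calls were lost when 1 library was left out. With the 2-fold rule 55 introns were more spliced without siNT library a, 1 without siNT b, 11 without siNT c, and 2, 3 and 1 without siSFSWAP a, b and c. Of the 20 past the adjusted p, all but HMGN1 were lost without siNT library b (adjusted p 0.0543 to 0.197) or without siSFSWAP library c (0.0754 to 0.270), 18 without siSFSWAP a, 17 without siSFSWAP b, 8 without siNT c and 2 without siNT a. Their changes in spliced percent were then 72.2 to 129% of those with all 6 libraries. The minimum of 5 spliced reads also acted on the direction. With under 5 such reads in siNT, 218 members reached the minimum through siSFSWAP, and 172 had under 5 in siSFSWAP and reached it through siNT. Of the 19 called introns 6 were of the first kind, in HMGN1, PRPF4B (the longer one), INVS, GALT, NME3 and ANAPC2, so the minimum favoured a rise there and their p values do not allow for it. With at least 5 spliced reads in each group, 380 members were left, 5 more spliced at 0.2 and 12 at 2-fold. No share above is read as a result, because the siNT values chose the introns, and the adjusted p values below describe single introns in the same way.

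**Figure D4:**
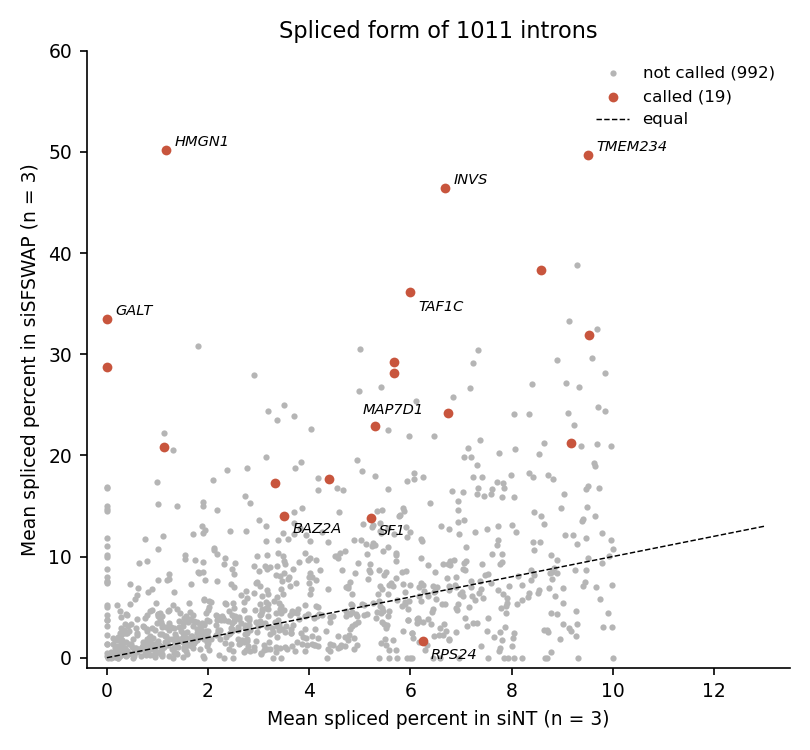
Each point is an intron, with the mean spliced percent in siNT on the horizontal axis, which the rule keeps near or below 10%, and in siSFSWAP on the vertical axis (n = 3 each). The 19 introns called at 2-fold odds are coloured, and 18 of them lie above the line of equal values, with HMGN1 highest at 50.2%.

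The exitron-like introns that changed lay in MAP7D1, BAZ2A and INVS. In MAP7D1, which encodes a protein that binds microtubules, an interval of 96 nt (chr1:36176322-36176417, plus strand) covers 32 codons starting at codon 325 of 840. The spliced percent was 5.63, 5.77 and 4.48 in the siNT libraries, against 19.99, 24.1 and 24.5 in siSFSWAP. The groups did not overlap, and the log2 odds changed by 2.33 ± 0.49 (SE, adjusted p 0.0109, quasi-binomial test). BAZ2A encodes a subunit of a chromatin remodelling complex that silences ribosomal DNA. Its interval of 90 nt (chr12:56615129-56615218, minus strand) covers 30 codons and had a spliced percent of 2.99, 3.003 and 4.53 in siNT and 10.7, 11.5 and 19.9 in siSFSWAP. Here too every siSFSWAP library was higher, with a log2 odds change of 2.23 ± 0.60 (adjusted p 0.0346). INVS encodes inversin, a protein of the primary cilium. Its 510 nt interval (chr9:100292437-100292946, plus strand), 170 codons long, had a spliced percent of 9.52, 0 and 10.5 in siNT and 51.1, 23.1 and 65.2 in siSFSWAP, the widest spread within siSFSWAP among the called introns, on 3, 0 and 1 and 12, 3 and 15 spliced reads (adjusted p 0.029). It had under 5 spliced reads in siNT and entered through siSFSWAP. All 3 lengths are multiples of 3.

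As a class the 71 coding intervals without a stronger junction had a median change of 1.33 points, 55 of them higher and 16 lower. Of all tested introns 61.2% were higher. The siSFSWAP libraries were all above siNT in 14 of the 71 (background 15.3%) and all below in 0 (background 6.02%). The siNT values chose these introns, so the counts are descriptions and a class difference was not tested.

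The largest change of all lay in HMGN1, which encodes a nucleosome-binding protein. Its interval of 205 nt (chr21:39348340-39348544, minus strand) shares its 3′ site with a shorter intron, chr21:39348340-39348421, that had 4364 reads. The rare junction had 0, 1 and 0 reads in siNT and 26, 18 and 30 in siSFSWAP, or 0, 3.51 and 0% and 50.5, 44.4 and 55.6% of the retained and spliced forms together. With 1 spliced read in siNT, this intron met the minimum of 5 through siSFSWAP alone. Per 100 reads of its own and the shorter junction it had 0, 0.187 and 0 in siNT and 2.84, 3.44 and 5.23 in siSFSWAP. The siNT mean was 1.17% ± 2.03 and the siSFSWAP mean 50.2% ± 5.56 (SD, n = 3 each), a rise of 48.99 points (adjusted p 0.000491). Against the more used junction it rose as well, with an adjusted p of 0.00111. HMGN1 was the only intron of the 20 past the adjusted p that stayed past it whichever library was left out.

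The same HMGN1 junction is also the skipping junction of an exon of 30 nt (chr21:39348422-39348451). That exon had an inclusion of 100, 99.8 and 100% in siNT and 97.02, 96.3 and 94.5% in siSFSWAP, a fall that passed the adjusted p (3.31e-05) but not the change of 0.2. Of the 1011 junctions 91 (9.0%) were the skipping junction of a tested exon event, beside 4.31% of all tested introns. Of these exons 55 were included less and 36 more in siSFSWAP, with a median of −0.11 points, and 1 was called lower and 0 higher (background 0.655% and 1.44% of exon events). Over all tested introns 193 such exons were included less and 245 more (median 0.11 points), with 6 called lower and 11 higher. The siNT values chose the 91 junctions, so these counts are descriptions. The exon values share their skipping reads with the intron values.

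The exon called lower lay in GALT, which encodes an enzyme of galactose breakdown. The junction of 573 nt (chr9:34647259-34647831, plus strand) had 0 spliced reads in all 3 siNT libraries and 5, 3 and 7 in siSFSWAP, beside 58 kept-form reads in each group, for a spliced percent of 34.5, 22.2 and 43.8 in siSFSWAP. It therefore met the minimum of 5 through siSFSWAP alone. Per 100 reads of its own and the most used other junction it had 16.1, 13.6 and 35 in siSFSWAP. A count of 0 over siNT allows a share of up to 9.38% (3 counts, counting error only). The 214 nt exon it skips had an inclusion of 100, 100 and 100% in siNT and 67.7, 73.9 and 39.1% in siSFSWAP (change -39.7 points, adjusted p 0.00896). These counts are low, and the intron's adjusted p of 0.0306 did not hold at 0.05 in any of the 6 fits that left out a library. NME3 encodes a nucleoside diphosphate kinase. Its junction of 286 nt (chr16:1770994-1771279, minus strand) was 0, 4.55 and 12.5% in siNT and 23.2, 32.2 and 32.2% in siSFSWAP, and the 102 nt exon it skips was included in 100, 97.2 and 92.98% and 84, 78.3 and 77.2% (adjusted p 0.00309). In TMEM147, a membrane protein of the endoplasmic reticulum, the junction (chr19:35546809-35547118, plus strand) was 14.5, 6.82 and 7.32% in siNT and 34.5, 36.1 and 25% in siSFSWAP. The exon skipped there changed by -3.27 points and did not pass (adjusted p 0.0681).

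Genes of the splicing machinery were among the called introns. SF1 binds the branch point at the start of spliceosome assembly. A 432 nt interval that spans a start or stop codon (chr11:64765519-64765950, minus strand) had a spliced percent of 4.17, 7.32 and 4.15 in siNT and 13.4, 14.8 and 13.3 in siSFSWAP. The log2 odds changed by 1.55 ± 0.34 (SE, adjusted p 0.0147), and against the more used junction to the same 3′ site, which had 1317 reads, the change was 2.65 ± 0.35 (adjusted p 0.000495). SRRM2, a scaffold protein of nuclear speckles, had a 124 nt interval (chr16:2770228-2770351, plus strand) that had a spliced percent of 11.2, 6.96 and 2.09 in siNT and 25.9, 20.7 and 26.2 in siSFSWAP. Its siNT libraries were spread widely but stayed below siSFSWAP, and the log2 odds changed by 1.82 ± 0.40 (adjusted p 0.0155). The most used other junction there had 2201 reads, and per 100 reads of both the SRRM2 junction had 4.55, 1.78 and 0.595 in siNT and 9.92, 9.62 and 9.82 in siSFSWAP.

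PRPF4B, a kinase of spliceosome proteins, had 2 called introns in its 3′ UTR. The longer one, 1065 nt (chr6:4061148-4062212, plus strand), had 1, 0 and 1 spliced reads in siNT and 7, 11 and 8 in siSFSWAP, or 0.99, 0 and 2.38% and 12.96, 25.3 and 24.2% (adjusted p 0.0124). The shorter one, 328 nt (chr6:4060687-4061014, plus strand), was spliced in 6.67, 13.3 and 7.6% and 18.7, 25.4 and 19.5% (adjusted p 0.0373). The longer one, with 2 spliced reads in siNT, met the minimum of 5 through siSFSWAP. Both lie in the same RNA and are not independent of each other. Few reads crossed other junctions there, 39 and 16 over the 6 libraries.

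Other introns more spliced in siSFSWAP lay in PAXX, TAF1C, TMEM234, GATD1, METTL26 and ANAPC2. PAXX acts in the joining of DNA ends, and its junction (chr9:136992705-136993052, plus strand) rose from 6.09, 5.63 and 5.3% to 25.9, 20.3 and 38.3% (adjusted p 0.00728). TAF1C belongs to the promoter factor of RNA polymerase I, and its 128 nt interval (chr16:84181464-84181591, minus strand) went from 11.4, 0 and 6.56% to 31.7, 38.2 and 38.5% (adjusted p 0.0221). In neither did the groups overlap.

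TMEM234, a predicted membrane protein, had a 102 nt interval in the 3′ UTR (chr1:32216282-32216383, minus strand) that had a spliced percent of 19.8, 8.7 and 0 in siNT and 39.5, 50.98 and 58.5 in siSFSWAP (adjusted p 0.024). The GATD1 intron (chr11:771213-771332, minus strand) was at 8.62, 11.4 and 5.71% in siNT and 38.8, 51.6 and 24.6% in siSFSWAP (adjusted p 0.0257), and the METTL26 intron (chr16:635064-635280, minus strand) at 2.02, 4.76 and 3.17% and 17.8, 11.9 and 22.2% (adjusted p 0.0335). For ANAPC2, a subunit of the anaphase-promoting complex, the junction (chr9:137175838-137177048, minus strand) had 0 spliced reads in siNT, which allows up to 7.06%, and 6, 6 and 2 reads or 41.4, 32.4 and 12.5% in siSFSWAP (adjusted p 0.0394), and it met the minimum of 5 through siSFSWAP alone. Again every siSFSWAP library was above every siNT library in spliced percent. Per 100 reads of own and most used other junction, GATD1 had 2.81, 6.25 and 5.26 in siNT and 7.34, 13.4 and 6.45 in siSFSWAP. METTL26 had 1.94, 15.8 and 12.5 and 7.95, 8.25 and 17.3, and there the groups overlapped.

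**Figure D5:**
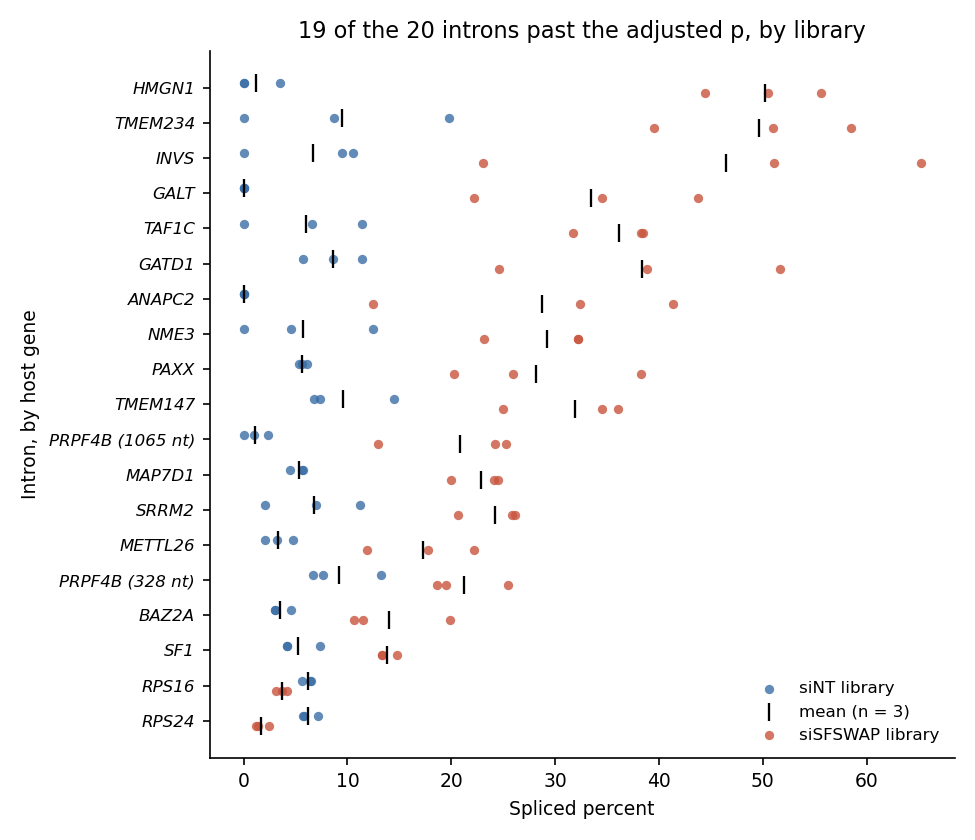
Points are the spliced percent in each of the 3 siNT and 3 siSFSWAP libraries for 19 of the 20 introns past the adjusted p, ordered by change, with black ticks at the group means. No intron shown has overlapping groups, and RPS16 and RPS24 are the 2 that were lower in siSFSWAP.

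The 2 introns that were less spliced in siSFSWAP and past the adjusted p lay in RPS24 and RPS16, genes of the small ribosomal subunit. In RPS24 a 134 nt junction (chr10:78037305-78037438, plus strand) begins at the 5′ site of a longer intron that had 58005 reads. Its spliced percent was 5.78, 7.2 and 5.74 in siNT and 1.19, 1.41 and 2.47 in siSFSWAP, with no overlap, and the log2 odds changed by -1.91 ± 0.57 (SE, adjusted p 0.0466). Per 100 reads of both junctions it had 0.171, 0.178 and 0.156 in siNT and 0.0383, 0.0431 and 0.0734 in siSFSWAP. Against the longer intron the change was -1.70 ± 0.53 (adjusted p 0.044). In RPS16 the junction (chr19:39433762-39435657, minus strand) was at 6.48, 6.36 and 5.66% in siNT and 4.14, 3.72 and 3.12% in siSFSWAP, a log2 odds change of -0.80 ± 0.20 (adjusted p 0.0331) that did not reach 2-fold. Over all 72 members in 38 cytosolic ribosomal genes the median change was 0.015 points, with 38 higher and 34 lower (136 and 94 over all tested introns of the list), and 1 passed the 2-fold rule.

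The junction was also compared with the most used other junction across the same interval, in place of the kept form, with the same test over the 5240 tested introns that allowed it. Of 680 members that allowed it, 8 were higher by at least 2-fold in siSFSWAP (background 5.02%) and 2 lower (background 2.65%). Of the 19 introns called on the kept form 13 could be read in this way, all 13 in the same direction, and 9 passed, among them ANAPC2, GALT, HMGN1, NME3, RPS24, SF1, SRRM2 and TMEM147. PAXX, GATD1, METTL26 and the shorter PRPF4B intron did not, with adjusted p values of 0.108, 0.244, 0.473 and 0.285. The own reads and the minimum of 5 spliced reads enter both readings, so the second is not independent of the first. HMGN1, GALT, NME3 and ANAPC2 had under 5 spliced reads in siNT and met the minimum through siSFSWAP here too.

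Of the 5 members with the most spliced reads, RPS16, described above, passed the adjusted p, and RPL8, ACTG1, FTH1 and RPS3 did not. RPL8, a protein of the large ribosomal subunit, had a coding interval of 63 nt, 21 codons, with 2122 spliced reads over the 6 libraries. It had a spliced percent of 4.03, 3.56 and 2.62 in siNT and 3.45, 3.24 and 3.14 in siSFSWAP, and the siSFSWAP values lay within the siNT range (log2 odds change -0.14 ± 0.14, adjusted p 0.697). Its edges share a repeat of 9 nt. ACTG1 encodes cytoplasmic gamma actin, and its 348 nt GC-AG interval had 1626 spliced reads. The spliced form was at 6.53, 5.87 and 6.92% in siNT and 7.01, 7.36 and 7.02% in siSFSWAP, higher in each siSFSWAP library by little (log2 odds change 0.15 ± 0.12, adjusted p 0.639). FTH1 encodes the heavy chain of ferritin, and its 86 nt GC-AG interval was at 2.03, 2.9 and 2.83% and 2.84, 2.73 and 3.03%, with overlapping groups (log2 odds change 0.22 ± 0.19, adjusted p 0.656). The edges of the FTH1 interval share a repeat of 6 nt.

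RPS3, of the small ribosomal subunit, had a 674 nt junction at 1.46, 2.22 and 1.46% in siNT and 1.6, 1.34 and 1.5% in siSFSWAP (adjusted p 0.909). Its edges share a repeat of 6 nt. Introns of HNRNPA1 and TUBA1B, named by gene list and with fewer spliced reads, are given beside these. HNRNPA1, an RNA-binding protein that acts in splicing, had an interval of 30 nt, 10 codons from codon 335 of 372, with GC-AG ends and a repeat of 7 nt at its edges. It had a spliced percent of 0.362, 0.644 and 0.234 in siNT and 0.312, 0.288 and 0.359 in siSFSWAP (log2 odds change -0.31 ± 0.47, adjusted p 0.824). TUBA1B, an alpha tubulin, had a coding interval of 120 nt that was spliced in 0.0408, 0.0334 and 0.31% and 0.126, 0.0868 and 0.213%. In RPS3, HNRNPA1 and TUBA1B the groups overlapped. Ribosomal protein genes, ACTG1, FTH1, HNRNPA1, TUBA1B and HMGN1 have processed copies or near-identical relatives in the genome, and counts of reads that match several copies are uncertain.

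Members were next read by gene list. The siNT values chose the members but not the other tested introns of a list. Counts and medians by list are therefore descriptions, and differences between members and all tested introns were not tested. Among 6 introns in 5 genes of the core spliceosome all 6 had a higher mean in siSFSWAP (median 8.59 points), with SF1 called, and SNRNP70, a U1 snRNP protein, at 5.67, 0 and 0% in siNT and 15.2, 17.4 and 4.35% in siSFSWAP (adjusted p 0.254). Over all 93 tested introns of that list 39 were higher and 54 lower, with a median of −0.15 points. The 6 introns in 3 splicing kinases had a median change of 7.93 points, beside 0.30 over all tested introns of the list, with the PRPF4B introns called. CLK2 of that list, at 6.45, 6.9 and 13.3% and 21.1, 47.4 and 20%, did not pass (adjusted p 0.197). Among 12 introns of SR-related and nuclear speckle genes 8 were higher and 4 lower (median 0.88 points, beside 0.24 over all tested), with SRRM2 called and LUC7L3 not (adjusted p 0.296).

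In the remaining lists 1 intron, that of RPS24, was called. In SR protein genes 2 of 4 introns were higher (10 of 25 over all tested) and none was called, with SRSF1 at 1.25, 1.43 and 1.5% in siNT and 3.71, 4.49 and 6.34% in siSFSWAP (adjusted p 0.0646) and SRSF5 at 4.4, 18.05 and 1.92% and 4.42, 3.85 and 16% (adjusted p 0.981). Of 20 hnRNP introns 10 were higher and 10 lower (40 and 47 over all tested), and of 19 introns in translation factor genes 10 were higher and 9 lower (62 and 78 over all tested), with EIF4A1 at 1.72, 3.79 and 3.83% and 1.8, 1.31 and 0.578% (adjusted p 0.254). The 24 introns in snoRNA host genes had a median change of 0.29 points (−0.38 over all tested), with SNHG1 at 1.49, 14.9 and 8.82% and 19.2, 23.4 and 38.5% (adjusted p 0.0987) and SNHG7 not called (adjusted p 0.196). The 13 in chromatin regulators, KMT2A and KMT2C among them, had 10 higher and 3 lower (median 1.86 points), beside 92 and 51 over all tested. The 7 in chaperones such as HSPH1 and HSP90B1 had 5 higher and 2 lower, while all tested chaperone introns had 19 higher and 36 lower (median −0.11 points). The 8 in cytoskeletal genes had 6 higher and 2 lower, beside 52 and 18 over all tested. The list of O-GlcNAc and hexosamine pathway genes held 0 members, and IFRD2 held 1, an intron of 265 nt at 6.76, 7.02 and 1.37% in siNT and 23.3, 8 and 24% in siSFSWAP (adjusted p 0.238). The IFRD2 intron had 12 spliced reads in siNT and 9 in siSFSWAP, beside 441 and 75 kept-form reads. Against the most used other junction its log2 change was -0.59 ± 0.82 (SE, adjusted p 0.722, quasi-binomial test).

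Median changes ranged from 0.56 to 2.27 points over the length and position classes of the members. Members up to 100 nt had a median change of 1.48 points, those above 100 and up to 300 nt 0.97, those above 300 and up to 1000 nt 0.76 and those above 1000 nt 1.83 points. All tested introns of the same classes had 0.88, 0.66, 0.096 and −0.34 points. By position the median was 1.24 points in coding sequence, 1.34 across start or stop codons, 1.61 in 5′ UTRs and 1.79 in 3′ UTRs. It was 0.56 in exons of retained-intron transcripts, 2.27 in exons of other transcript types and 1.12 in no single annotated exon. The 802 introns with a stronger other junction had a median of 0.79 points and the 209 without one 1.64 points. These medians are descriptions with no test, since the siNT values chose the members of each class.

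The members nearest the threshold of 0.9 were RHOT2, at 11.6, 9.78 and 8.63% spliced in siNT and 6.04, 13.9 and 12.3% in siSFSWAP, and KDM6A, at 14.1, 5.56 and 10.3% and 5.26, 3.92 and 0%. Just outside it were KLHL17, at 13.1, 6.56 and 10.4% in siNT and 38.5, 37.5 and 30% in siSFSWAP, and CENPV, at 9.82, 9.38 and 10.9% and 9.72, 5.71 and 11.2%.

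The host genes were read by measures other than those of the rule. The read minimums of the rule counted reads of the same genes, and the part of that in the shares below was not tested. Spliced junction reads per gene could be fitted for 712 of the 722 genes with limma, and 179 (25.1%) were higher in siSFSWAP and 121 (17.0%) lower at an adjusted p of at most 0.05, beside a background of 14.7% and 15.6% of all genes. The median log2 change was 0.058 for host genes and −0.0047 for all. TMEM234 (log2 change 1.38 ± 0.19, SE), INVS (0.95 ± 0.19), GALT (0.88 ± 0.18), METTL26 (0.77 ± 0.09), NME3 (0.75 ± 0.17) and GATD1 (0.67 ± 0.11) were among those higher. MAP7D1 (-0.30 ± 0.12, adjusted p 0.0706) and HMGN1 (0.18 ± 0.08, adjusted p 0.121) did not pass. Nor did PAXX, PRPF4B, SF1, SRRM2, TAF1C, BAZ2A, ANAPC2, TMEM147, RPS16 and RPS24 (adjusted p 0.0504 to 0.850). Of 671 host genes with a tested exon event 79 (11.8%) had an exon called higher and 28 (4.17%) an exon called lower, beside 4.22% and 2.48% of all genes. Host genes had more tested exon events, a median of 8 against 4, and the part of that in the shares was not tested.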

How the data were processed

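RNA of 3 siNT and 3 siSFSWAP cultures was measured by polyadenylated RNA sequencing. Reads were trimmed by the authors (cutadapt 1.9.1), mapped to GRCh38 with GENCODE 40 genes (STAR 2.7) and passed to rMATS. In the deposited retained intron and skipped exon tables, each cell lists 3 libraries of a group: whole-number counts of inclusion and skipping junction reads without normalisation, and inclusion as a fraction. The tables also hold the authors' p-value and FDR per event and an inclusion difference, a score from −1 to 1. Those columns were not used. Groups are numbered 1 and 2 in the column names. Which is siNT follows from the methods' definition of that difference, and the SFSWAP reads were read as a check. The lists carry no replicate numbers, so letters a to c name the libraries by their place in the list. The sources used here do not give whether counting used strand, and reads of overlapping genes may be mixed.

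Spliced percent is 100 minus inclusion, computed from counts divided by the deposited effective lengths. Tested introns averaged 20 or more reads per library, with at least 5 reads of each form and reads in at least 2 libraries of each group. The test was a quasi-binomial F test, two-sided (dispersion moderated with limma 3.58.1 in R 4.3.3, with a trend on depth, floored at 1), adjusted by Benjamini-Hochberg over all 10155. Log2 odds changes used summed group counts with 0.5 added to each. Exon events had the same test. Junction reads per gene, summed over the skipped exon table with 1 event per exon, were scaled to CPM and tested with limma on log2(CPM + 0.5). Both splicing and RNA amount move these sums. Scripts were tested on simulated data. Positions and sequences came from GRCh38 with GENCODE release 44. Of the 1011 introns 1010 had their gene matched.

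The introns, gene lists and the rule for named introns were chosen with earlier results of these data known. Named were, with 1 intron per gene, those called at the 0.2 threshold and at 2-fold odds (at most 10 per direction each), the 5 with most spliced reads, 2 on each side of the threshold, at most 2 per gene list, and IFRD2, OGT, GFUS and SFSWAP where a member. METTL26, BAZ2A and the second PRPF4B intron passed the adjusted p outside that ranking and were added after their values were seen. The comparison with the most used other junction was also added then. The planned count-based fit with a term per library was not run, because the cells hold lists of libraries. The values of 1 called intron and of 1 marker gene are not reported here.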

Additional observations from a re-analysis of the deposited data

How the results depend on the processing

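The main counts were 10 introns more spliced and 0 less spliced at a change of 0.2, 18 and 1 at 2-fold odds, and a median change of 0.99 points. Leaving out a library in turn gave 1 to 17 more spliced at 0.2, 1 to 55 more (11 without siNT library c) and 0 to 14 less at 2-fold, and medians of 0.91 to 1.25 points. Limma on log2 odds gave 0 more spliced at 0.2, and 0 more and 0 less at 2-fold. A mean of at least 50 reads left 6 at 0.2 and a median of 0.51. No minimum of reads of each form gave 0 less at 2-fold. Introns chosen on the mean of all 6 libraries gave 0 at 0.2, 2 more and 2 less at 2-fold and a median of 0.29. Those chosen on siSFSWAP gave 0 more and 2 less at 0.2, 0 more and 5 less at 2-fold and a median of −0.11. With siNT inclusion of at least 0.95 there were 3 at 0.2, and 7 more and 0 less at 2-fold. With no shared splice site there were 3 at 0.2, 5 more and 0 less at 2-fold and a median of 1.37. With no other junction of more reads there were 3 at 0.2, 6 more and 0 less at 2-fold and a median of 1.64. Read against the most used other junction, 8 were more and 2 less used. With at least 5 spliced reads in each group there were 5 at 0.2 and a median of 1.37. The last 3 settings were chosen after seeing the data, as was a minimum of 30 spliced reads. Fewer introns enter under the narrower choices, and the cause of the other changes was not tested.

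With held-out siNT libraries the mean difference was 1.80 points, and 1.65 to 1.9 by library. The read minimums still counted the held-out and siSFSWAP libraries there. Dispersion without a floor or a trend, GT-AG ends only, a pseudocount of 1 and the other settings for host genes moved no count by more than 1.5 times. For single named introns, 108 of the 468 readings under other settings lost the call, 4 gained it, and none changed direction among called introns. No paired analysis was possible because the columns carry no replicate numbers. The planned count-based quasi-likelihood fit was not run. Depth limits these values, since 478 of 1011 introns had under 10 spliced reads.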
